A study of Drosophila melanogaster with 31 samples.

Results

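Tabor is a retrotransposon of *Drosophila melanogaster* that carries long terminal repeats and belongs to the gypsy superfamily. It was taken here as the single consensus entry TABOR, 1 of 129 transposable element entries found by name in each of 5 deposited tables, with an entry length of 6842 bases against a median of 4725 bases over all entries. The samples were ovarian somatic cells (OSC), a line cultured from somatic follicle cells of fly ovaries, grown at 26 °C, and 25 of the 31 samples lie behind these tables. RNA sequencing of poly(A)+ RNA covered cells transfected with siRNAs against Piwi (1 sample), Panx (2), Nxf2 (2) or, as the control, EGFP (2); these knockdowns are written Piwi-KD, Panx-KD, Nxf2-KD and EGFP-KD. CLIP, in which RNA bound to a protein is recovered by immunoprecipitation (IP) after ultraviolet (UV) crosslinking, was done with an anti-myc antibody in a stable line expressing myc-Nxf2. One experiment compared crosslinked cells (2 IP samples and 1 size-matched input, SMInput) with uncrosslinked cells (2 and 1). Another compared Piwi-KD (2 IP and 2 SMInput) with EGFP-KD (2 and 2), and per the labels both arms were also depleted of endogenous Nxf2. Piwi itself was recovered by CLIP from OSC (2 IP samples and 1 SMInput), and the small RNAs bound to Piwi were sequenced in 1 sample. H3K9me3 libraries carry no element names in their peak lists and were not analysed here for TABOR.

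In follicle cells the Piwi pathway works in the nucleus. Piwi carries small RNAs (piRNAs) that match transposon transcripts, and Panx and Nxf2, the second a relative of a general mRNA exporter, act with it to silence the matching loci while they are transcribed. LTR retrotransposons are copied from an RNA transcript that runs from one terminal repeat to the other and encodes the gag and pol proteins. The transcript is thus both the thing that is silenced and the thing that RNA sequencing counts. CLIP counts RNA recovered with a protein, and the small RNA library counts small RNAs bound to Piwi.

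Each table held 1 count per condition, and whether this pools the replicates is not given in the sources used here. No difference below therefore has a replicate check. Every interval is an exact 95% counting interval that compares these libraries and covers counting error only. It treats reads as independent molecules, which they are not, so it can be too narrow even for that error. Library totals, recovered from the authors' scaling, ran from 426679 to 9852335 reads. A difference was called where the ratio reached 2 or was no more than 0.5 and its interval excluded 1; the elements tested in a table were those averaging 1 RPKM or RPM or more over its libraries. The genes for Piwi, Panx and Nxf2 and markers of follicle or germ cells are not entries of these tables, so neither the depletion nor the cell identity was checked here. In bulk samples, fewer cells expressing an element and less RNA per cell cannot be told apart.

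TABOR RNA stood highest when Piwi was depleted and lowest in the control. It was at 719 RPKM (reads per 1000000 library reads and per kb of the entry) with Piwi-KD, 408 RPKM with Panx-KD and 380 RPKM with Nxf2-KD, against 28.3 RPKM in EGFP-KD cells. These levels rest on 44121, 25461, 23662 and 1905 reads in the same order of libraries. The counting intervals of the 4 levels did not overlap: 712 to 726 RPKM with Piwi-KD, 403 to 413 RPKM with Panx-KD, 375 to 385 RPKM with Nxf2-KD and 27.0 to 29.6 RPKM with EGFP-KD. TABOR had reads in the control too, where it stood 14th of 129 entries per kb, between DOC6 (31.7 RPKM) and PROTOP_A (23.8 RPKM). In all 3 knockdowns it stood 6th per kb. Its neighbours were BLOOD (902 RPKM) and DM297 (697 RPKM) in Piwi-KD cells. In Panx-KD cells they were GYPSY (638 RPKM) and STALKER2 (339 RPKM), and in Nxf2-KD cells GYPSY (647 RPKM) and STALKER2 (327 RPKM).

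**Figure D1:**
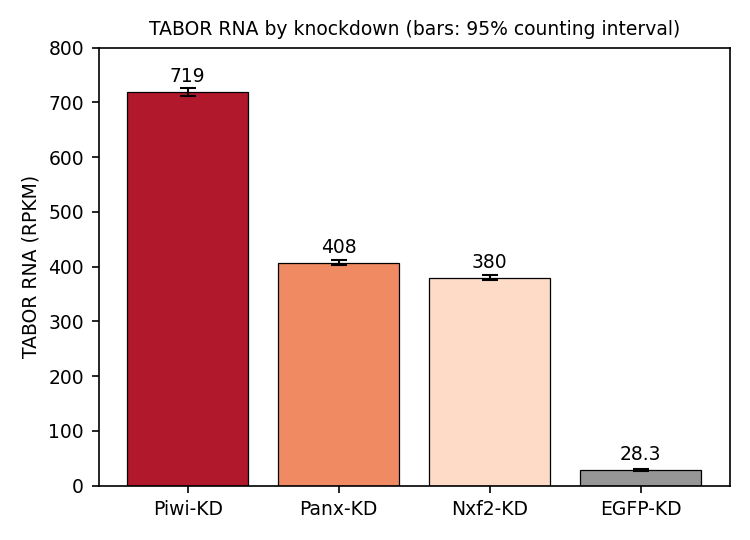
TABOR RNA in RPKM for the 4 knockdowns of the RNA sequencing table, 1 deposited value per condition, with exact 95% counting intervals. The Piwi-KD level of 719 RPKM lies above the 408 RPKM of Panx-KD and 380 RPKM of Nxf2-KD, and all lie above the 28.3 RPKM of EGFP-KD.

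Set against the control, TABOR was 25.4-fold higher with Piwi-KD (24.3 to 26.6), 14.4-fold higher with Panx-KD (13.8 to 15.1) and 13.5-fold higher with Nxf2-KD (12.8 to 14.1). The 3 comparisons share the EGFP-KD library. All 3 passed the call for a rise, a call that 43.1% of the 65 tested elements met with Piwi-KD (3.08% met the call for a fall), 33.8% with Panx-KD and 33.8% with Nxf2-KD. On the log2 scale the median element stood at 0.59 with Piwi-KD, 0.60 with Panx-KD and 0.48 with Nxf2-KD, and 22, 14 and 17 of the 65 elements lay below a ratio of 1. Relative to those medians TABOR was 16.9-fold, 9.55-fold and 9.67-fold higher, in the same order. After that centring 23 elements were called higher and 7 lower with Piwi-KD (28 and 2 without it), 14 and 3 with Panx-KD (22 and 0) and 13 and 4 with Nxf2-KD (22 and 0). Scaled to element reads in place of library totals, a scaling added after the data were seen, the TABOR rises were 8.79-fold, 7.92-fold and 7.92-fold, and without COPIA 8.51-fold, 6.86-fold and 6.67-fold, all still called. By size of ratio TABOR was 11th of 65 with Piwi-KD and 7th with Panx-KD and with Nxf2-KD. In the Piwi-KD order it stood between STALKER4 (28.2-fold, 24.8 to 32.2), whose interval overlaps that of TABOR, and DM176 (19.8-fold, 18.1 to 21.8), whose interval does not. In the Nxf2-KD order it stood between Transib1 (13.7-fold at a floor of 3 counts, with 0 control reads) and DM412B (12.6-fold, 3.98 to 64.2), and neither was separated from it by counting error. The same elements flanked it in the Panx-KD order, DM412B at 16.2-fold (5.20 to 81.4) and Transib1 at 14.4-fold at the floor.

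Among the knockdowns themselves, the TABOR levels differed less. The Piwi-KD level was 1.89 times that of Nxf2-KD (1.86 to 1.92) and 1.76 times that of Panx-KD (1.74 to 1.79), both short of the 2-fold threshold; 21.5% of elements passed it upward in each of these comparisons. Centred on the median, Piwi-KD over Nxf2-KD had 14 elements called higher and 2 lower, against 14 and 0 uncentred. With element reads removed from the library totals the ratio of Piwi-KD to Nxf2-KD reached 2.04 and passed the threshold. Scaled to element reads it was 1.11, and 1.28 without COPIA, and the ratio of Piwi-KD to Panx-KD was 1.11 and 1.24, so the size of both differences depends on the scaling. Nxf2-KD against Panx-KD gave 0.933 (0.917 to 0.950), against a median of 0.967 and a middle range of 0.915 to 1.04 (quartiles) over the tested elements, and 0% of elements were called in either direction. TABOR lay between those quartiles. Scaled to element reads its ratio was 1.001, and 0.973 without COPIA, neither called, so the order of Nxf2-KD and Panx-KD also depends on the scaling.

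TABOR made up 3.00% of all element reads with Piwi-KD, 2.70% with Panx-KD and 2.70% with Nxf2-KD, against 0.341% in EGFP-KD cells. Of the RPM (reads per 1000000 library reads) that all elements together gained over the control, TABOR supplied 4.40% with Piwi-KD, 5.57% with Panx-KD and 6.08% with Nxf2-KD, the 4th largest share each time. COPIA, the most abundant element, supplied 64.1%, 54.2% and 50.3%.

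Dividing the TABOR ratio by that of another element in the same libraries removes the library totals from the comparison. This was done for MDG1, DM412, STALKER4, GYPSY, BLOOD and COPIA, all LTR retrotransposons, in 78 pairs over 13 comparisons, and the intervals are not adjusted for that number. In Piwi-KD cells the TABOR rise was 0.157 times that of DM412 (0.141 to 0.174), 0.528 times that of GYPSY (0.493 to 0.566) and 0.581 times that of MDG1 (0.537 to 0.628). It was 0.902 times that of STALKER4, with an interval of 0.784 to 1.03 that includes 1. It was 12.1 times that of BLOOD (11.5 to 12.7) and 8.94 times that of COPIA (8.54 to 9.37).

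The order against these elements was not the same in Nxf2-KD cells. There the TABOR rise was 0.222 times that of MDG1 (0.205 to 0.240), 0.458 times that of GYPSY (0.427 to 0.492) and 0.513 times that of DM412 (0.460 to 0.571), but 1.84 times that of STALKER4 (1.59 to 2.12). Panx-KD cells gave 0.249 for MDG1, 0.498 for GYPSY, 0.407 for DM412 and 1.86 for STALKER4. Piwi-KD set against Nxf2-KD gave each element's difference directly: TABOR was 1.89 times higher, STALKER4 3.85 times (3.65 to 4.07) and DM412 6.18 times (6.06 to 6.31) higher, and MDG1 stood at 0.722 (0.713 to 0.732). TABOR divided by MDG1 was 2.62 (2.56 to 2.67) in that comparison and TABOR divided by COPIA was 1.02 (1.003 to 1.036).

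**Figure D2:**
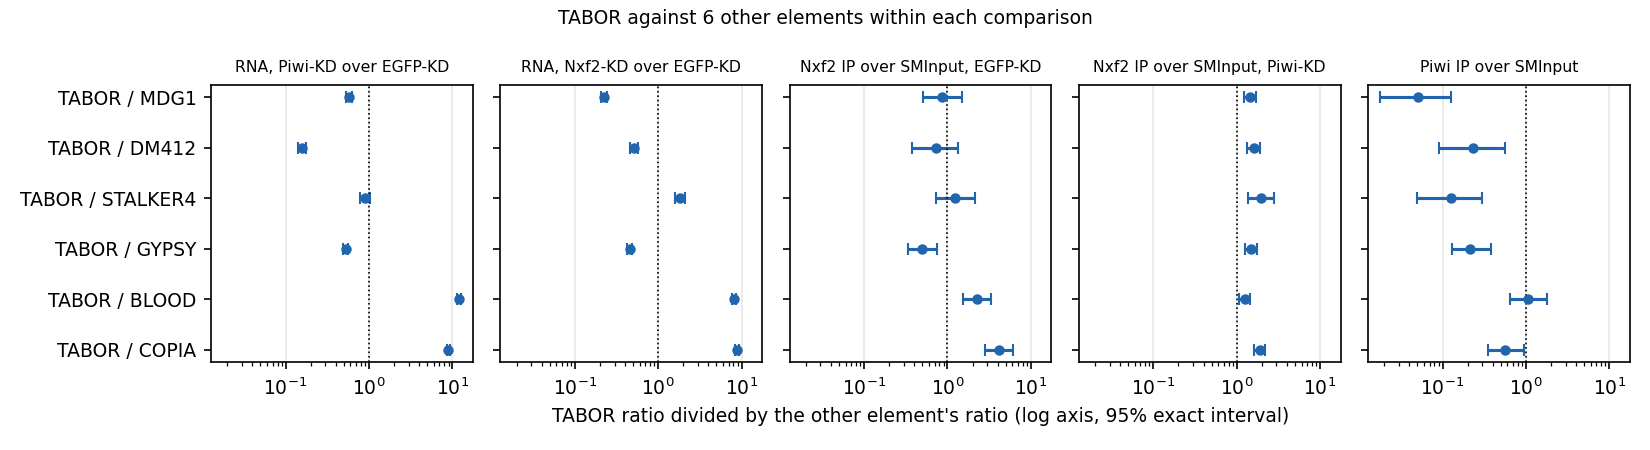
TABOR's ratio in a comparison divided by that of MDG1, DM412, STALKER4, GYPSY, BLOOD or COPIA in the same libraries, on a log axis with exact 95% intervals; the dotted line marks equal ratios. The points for the Piwi IP lie at 0.0504 to 0.233 for MDG1, DM412, STALKER4 and GYPSY, while all 6 points for the Nxf2 IP of Piwi-KD cells lie above 1.

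Over the 3 RNA ratios, 64 other elements were ranked by their Euclidean distance from TABOR on the log2 scale with a pseudocount of 1 RPKM. The 5 nearest were STALKER4 (distance 1.62), GYPSY (1.74), DM412B (1.83), DM297 (2.30) and QUASIMODO (2.33), against a median distance of 6.29. DM412B had 3 control reads, so its place rests on few counts. A list of 20 LTR retrotransposon names known from follicle cells was chosen with earlier results of these data known. Its members also count among all tested elements, so its counts here and below describe the list and test nothing. It matched 18 entries, TABOR among them, and 15 were tested for RNA. Of these 13 were called higher with Piwi-KD, beside 28 of all 65 tested elements (43.1%), with a median ratio of 28.2 against 1.50. With Panx-KD 11 were called higher, beside 22 of 65 (33.8%), with a median of 6.33 against 1.51. With Nxf2-KD 10 were called higher, beside 22 of 65 (33.8%), with a median of 4.63 against 1.39, and 0 were called lower in these comparisons. TABOR was 9th of the 15 by its Piwi-KD ratio, and 6th by its Panx-KD and its Nxf2-KD ratio.

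CLIP of myc-Nxf2 asked whether TABOR RNA is held by Nxf2. In crosslinked cells TABOR had 38.8 RPM in the IP from 48 reads, against 18.6 RPM in SMInput from 51 reads. Without crosslinking it had 4.69 RPM in the IP from 2 reads, and 0 reads in SMInput, where the floor of 3 counts stands at 1.80 RPM and the exact upper limit at 2.21 RPM. The crosslinked IP was therefore 2.09 times its SMInput (1.38 to 3.16), just past the threshold that 34.9% of the 63 tested elements passed upward and 3.17% downward. Relative to the median element of this comparison the ratio was 1.10, and 14 elements were then called higher and 7 lower, against 22 and 2 uncentred. Scaled to element reads it was 1.82, and 1.02 without COPIA, neither called. TABOR stood 29th of 60 elements with a value, between NOMAD (2.22, 0.664 to 7.41) and HMSBEAGLE (1.90, 0.803 to 4.43), neither separated from it. Its ratio was 0.184 times that of STALKER4 (0.0681 to 0.454), 0.213 times that of GYPSY (0.134 to 0.338) and 0.398 times that of DM412 (0.160 to 0.949). It was 0.558 times that of MDG1 (0.296 to 1.05) and 0.882 times that of BLOOD (0.578 to 1.34), with intervals that include 1, and 2.33 times that of COPIA (1.53 to 3.52).

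The crosslinked IP exceeded the uncrosslinked IP 8.27-fold (2.17 to 70.2), a wide interval with 2 uncrosslinked reads, and 33.3% of elements passed the same call. Relative to the median element it was 4.24-fold higher. Scaled to element reads it was 2.40, and 2.15 without COPIA, and neither was called. The crosslinked SMInput was also above the uncrosslinked one, at least 10.3-fold against a floor of 3 counts (51 reads against 0; exact lower limit 8.09), in a comparison in which 41.3% of elements were called higher and 1.59% lower (26 and 1 elements, or 8 and 2 after centring). The size of the TABOR value depended on the scaling: it was 2.96 relative to the median element, 0.984 scaled to element reads and 2.15 without COPIA, all at the floor. The 0.984 shows no fall, since the floor stands in for 0 reads. TABOR made up 0.174% of element reads in the crosslinked SMInput, against 0% in the uncrosslinked one (upper limit 0.217%). On that scale the depth does not settle the direction. A value of the crosslinking effect on IP over SMInput could not be formed for TABOR because of the 0 reads, and the IP and SMInput without crosslinking were both at or under the floor. Of the 63 tested elements 31 had such a value, with a median of 0.606; 3.17% of the tested elements were called higher and 6.35% lower.

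**Figure D3:**
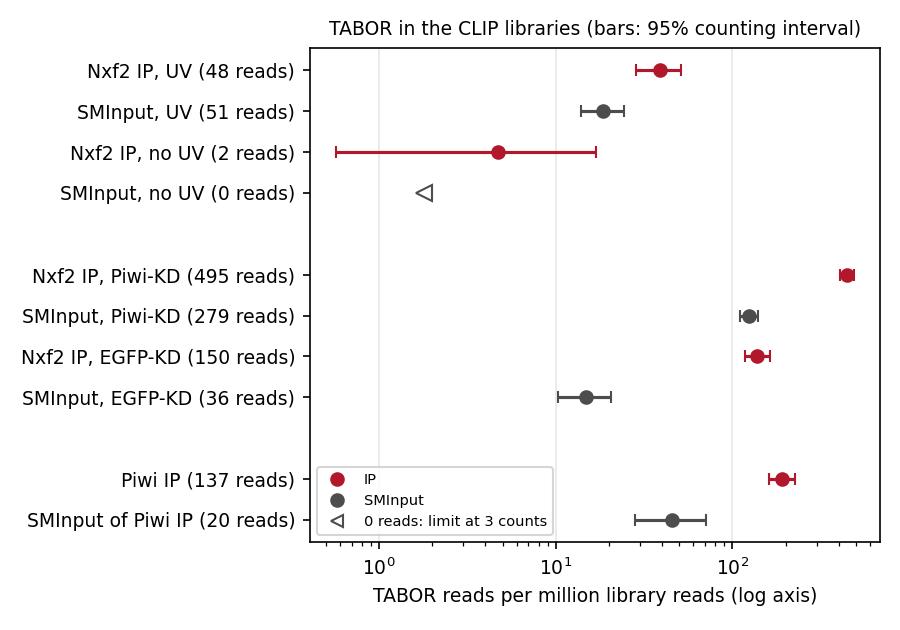
TABOR reads per 1000000 library reads in the 10 CLIP libraries on a log axis, with exact 95% counting intervals; IP libraries in red, SMInput in grey, and the open triangle at 1.80 RPM, the floor of 3 counts, for the library with 0 reads. Outside the uncrosslinked pair each IP lies above its own SMInput. In that pair the IP holds 2 reads and the SMInput 0, both at or under the floor, and no ratio was given. The Piwi-KD SMInput at 125 RPM lies within the interval of the EGFP-KD IP at 139 RPM.

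In the knockdown experiment TABOR was above its SMInput in both arms. It stood at 446 RPM in the Piwi-KD IP (495 reads) and 125 RPM in the Piwi-KD SMInput (279 reads), and at 139 RPM in the EGFP-KD IP (150 reads) and 14.8 RPM in the EGFP-KD SMInput (36 reads). The EGFP-KD IP was 9.38 times its SMInput (6.49 to 13.9), and 50% of the 78 tested elements passed the call upward and 3.85% downward. Relative to the median element TABOR was 3.33-fold higher, and 23 elements were then called higher and 13 lower, against 39 and 3 uncentred. Scaled to element reads it was 3.68, and 3.33 without COPIA, both called. It stood 18th of 73 elements with a value, between FW (9.42, 4.81 to 20.2) and G2 (9.01, 0.891 to 444), neither separated from it. The column of this IP does not name Nxf2 in its header, so the depletion of endogenous Nxf2 there rests on the labels. In these cells the TABOR recovery was not separated from that of MDG1 (0.872 times, 0.516 to 1.48), DM412 (0.723 times, 0.380 to 1.35) or STALKER4 (1.24 times, 0.721 to 2.14). It was 0.495 times that of GYPSY (0.334 to 0.751) and 2.25 times that of BLOOD (1.55 to 3.36).

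With Piwi depleted, the TABOR RNA in both fractions was higher, but more so in the SMInput. The SMInput was 8.44-fold higher in Piwi-KD than in EGFP-KD cells (5.95 to 12.3), 7th among 72 elements with a value, where 23.1% of tested elements were called higher and the list of follicle cell LTR elements had 11 of 15 called. Centring left 9 elements called higher and 4 lower, against 18 and 0, and TABOR at 5.99, and scaling to element reads gave 5.06, or 3.77 without COPIA. The IP was 3.22-fold higher (2.68 to 3.89), 9th among 72, and 2.58-fold higher scaled to element reads or 2.12-fold without COPIA. A rise in the IP was called in 8.97% of elements and a fall in 17.9%. GYPSY, for comparison, rose 10.3-fold in the SMInput and stood at 1.30 in the IP, and STALKER4 rose 2.40-fold in the SMInput and stood at 0.581 in the IP. The TABOR change in the IP was 2.48 times that of GYPSY (2.04 to 3.02), 5.54 times that of STALKER4 (3.91 to 7.86) and 0.171 times that of MDG1 (0.134 to 0.217).

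The recovery over SMInput was thus 3.58 in Piwi-KD cells (3.08 to 4.16), against 9.38 in EGFP-KD cells. The ratio of these, 0.381 (0.250 to 0.570), was called lower, as were 29.5% of tested elements, while 2.56% were called higher. The median element had 0.525, and relative to it TABOR stood at 0.726, short of the threshold; 17 elements were then called lower and 9 higher, against 23 and 2 uncentred. With a pseudocount of 10 RPM the ratio was 0.564, scaled to element reads 0.509 and without COPIA 0.562, all short of it. MDG1 (0.231, 0.160 to 0.327), STALKER4 (0.242, 0.147 to 0.397), DM412 (0.172, 0.102 to 0.279) and GYPSY (0.126, 0.109 to 0.146) had lower values. The intervals of MDG1, STALKER4 and DM412 overlap that of TABOR while that of GYPSY does not. TABOR was not divided by these elements here, and overlap alone does not show that values are alike. BLOOD had 0.687 (0.635 to 0.743), short of the call. The TABOR recovery in crosslinked cells of the UV experiment, whose labels name no knockdown, was 2.09 (1.38 to 3.16), below both arms. Its interval overlaps that of Piwi-KD cells but not that of EGFP-KD cells (6.49 to 13.9). This spread between experiments was not tested.

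With Piwi depleted, TABOR had a higher recovery with Nxf2 than each of the 6 other elements. Divided by theirs, its ratio was 1.25 for BLOOD (1.07 to 1.46), 1.44 for MDG1 (1.23 to 1.68), 1.49 for GYPSY (1.27 to 1.75), 1.60 for DM412 (1.33 to 1.93), 1.88 for COPIA (1.62 to 2.19) and 1.96 for STALKER4 (1.37 to 2.79). All 6 intervals exclude 1, and none of the 6 ratios reaches 2. TABOR was 13th of 71 elements with a value, between GYPSY12 (3.74, 2.89 to 4.85) and MDG3 (3.57, 2.16 to 6.01), neither separated from it, and 2nd among the 15 tested follicle cell LTR elements. The call for enrichment was met by 33.3% of tested elements, and relative to the median element TABOR stood at 1.88, short of it, with 3 elements then called higher and 12 lower, against 26 and 3 uncentred. Scaled to element reads it was 1.87, with COPIA or without, also short of the call.

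Piwi recovered TABOR less than 5 of these 6 elements, and BLOOD was not separated from it. In the Piwi CLIP TABOR had 191 RPM in the IP from 137 reads, against 45.8 RPM in SMInput from 20 reads. The ratio was 4.17 (2.60 to 7.04) and passed a call that 57.1% of the 98 tested elements passed upward and 3.06% downward; the median element had 3.14, and relative to it TABOR stood at 1.33, short of the threshold, with 23 elements then called higher and 9 lower, against 56 and 3 uncentred. It was 39th of 90 elements with a value, between IVK (4.18, 1.98 to 10.2) and BLOOD (3.98, 3.77 to 4.21), neither separated from it. Against other elements in the same libraries, the TABOR recovery was 0.0504 times that of MDG1 (0.0177 to 0.127), 0.127 times that of STALKER4 (0.0500 to 0.301), 0.216 times that of GYPSY (0.128 to 0.379), 0.233 times that of DM412 (0.0910 to 0.554) and 0.567 times that of COPIA (0.353 to 0.957). The SMInput held 7 reads of MDG1 and 9 each of STALKER4 and DM412, so the sizes of those ratios rest on few counts. All 16 tested members of the follicle cell LTR list were called enriched, with a median of 13.9 against 3.14 over all tested elements, and TABOR was 12th of the 16. As a share of all element reads, TABOR made up 0.126% of the Piwi IP (0.106 to 0.149%) and 0.164% of its SMInput (0.10 to 0.253%), a ratio of 0.772, or 1.08 without COPIA, so on that scale no enrichment was detectable at this depth.

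**Figure D4:**
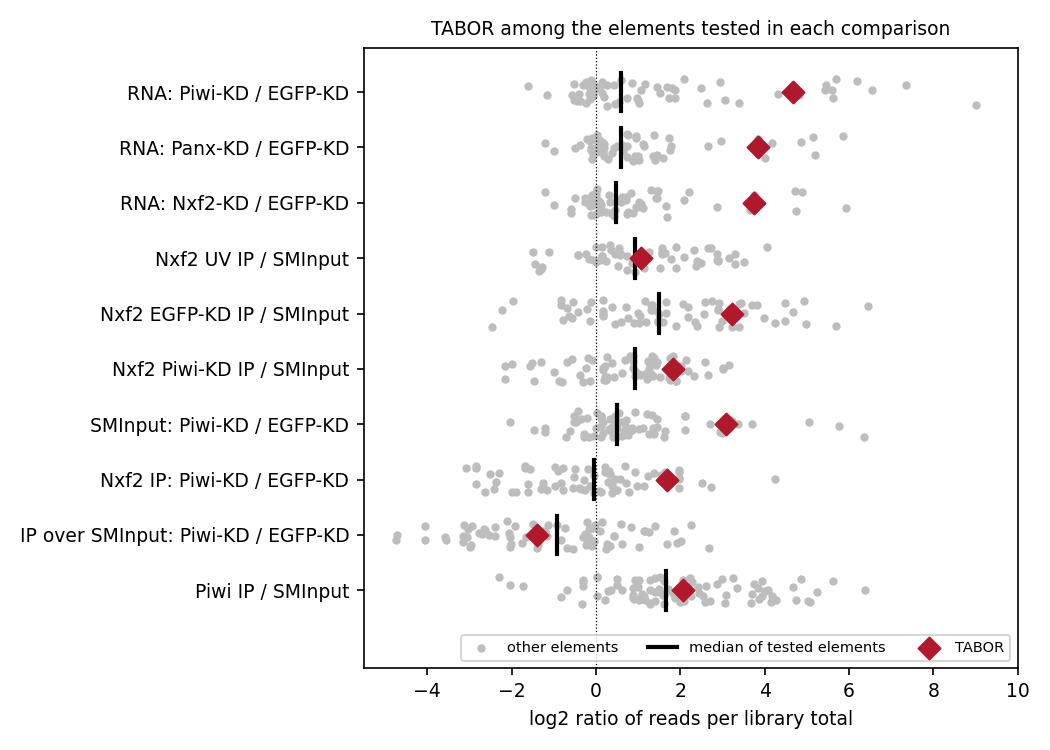
log2 ratios of reads per library total in 10 comparisons; grey points are the other tested elements with a value (vertical jitter has no meaning), black bars the median of the tested elements and red diamonds TABOR. TABOR lies far right of the median in the 3 RNA comparisons, at 4.67, 3.85 and 3.75, and close to it in the UV IP over SMInput (1.06 against 0.92) and the Piwi IP over SMInput (2.06 against 1.65).

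Over the 4 ratios of IP to SMInput (UV, EGFP-KD and Piwi-KD for Nxf2, and Piwi), TABOR was nearest to BLOOD (distance 1.16 on the log2 scale with a pseudocount of 1 RPM), Gypsy2 (1.17), Copia1 (1.41), DOC2 (1.44) and GYPSY4 (1.47), of 60 other elements with a median distance of 3.36. Of these elements 0 were among the 5 nearest by RNA response, but lists of 5 from 60 and from 64 elements would often share 0. With a pseudocount of 10 RPM only 2 of the 5 nearest by recovery remained. Gypsy2, Copia1, DOC2 and GYPSY4 had fewer than 20 reads in some of these libraries, so their order is uncertain. STALKER4 and GYPSY, the nearest by RNA, were 39th and 31st by recovery, and BLOOD, the nearest by recovery, was 26th by RNA. No test of this contrast was made.

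Among the small RNAs bound to Piwi, TABOR ranked 18th of 129 entries per kb. It had 28729 of 3187937 reads, 0.901% of the library (0.891 to 0.912%), or 9012 RPM, and 2.39% of the reads of all elements. Per kb it stood at 1317 RPM per kb, between GYPSY10 (1556) and TLD2 (1301), against a median of 23.2. DM412 had 4456 RPM per kb, GYPSY 2844, MDG1 2635 and STALKER4 2419, all above TABOR. BLOOD had 1056 and COPIA 62.2, both below it. The strand and length of these reads are not in the table, so sense and antisense small RNAs were not separated.

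**Figure D5:**
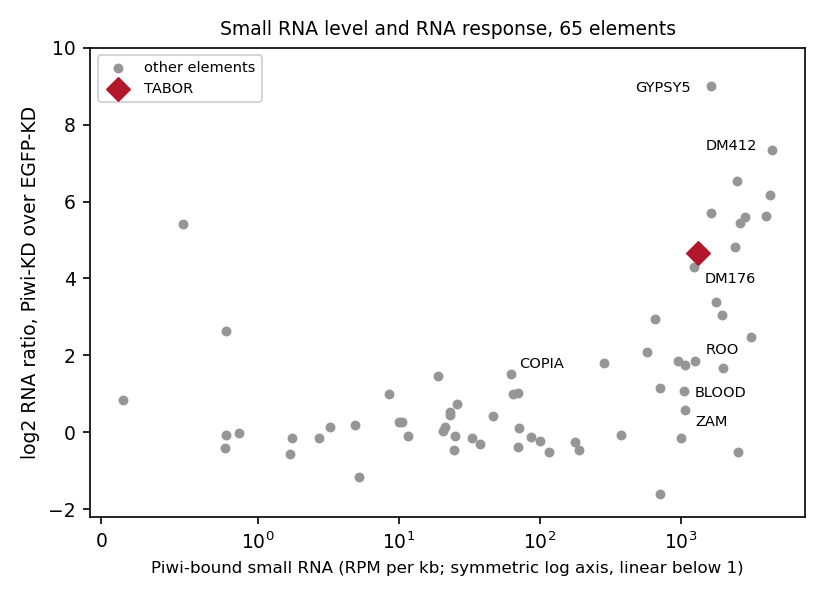
Piwi-bound small RNA in RPM per kb (symmetric log axis, linear below 1) against the log2 RNA ratio of Piwi-KD over EGFP-KD, 1 point for each of 65 elements. TABOR sits at 1317 RPM per kb and 4.67, above ZAM and BLOOD, which have small RNA levels of 1074 and 1056 RPM per kb.

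Elements with small RNA levels close to that of TABOR differed widely in how their RNA responded. Among the 65 elements tested for RNA, the 6 nearest by small RNA per kb, a selection made after the values were seen, were ROO (1258 RPM per kb), DM176 (1244), FW (1077), ZAM (1074), GYPSY5 (1627) and BLOOD (1056). Their RNA ratios in Piwi-KD over EGFP-KD cells were 3.64 for ROO, 19.8 for DM176, 3.35 for FW, 1.50 for ZAM, 514 for GYPSY5 and 2.11 for BLOOD. Only that of GYPSY5 lay above the 25.4 of TABOR, and it rests on 9 control reads, with an interval of 271 to 1126. In Nxf2-KD over EGFP-KD cells ROO stood at 2.47, DM176 at 1.95, FW at 1.85, ZAM at 1.39, GYPSY5 at 14.7 and BLOOD at 1.66, against 13.5 for TABOR. Across the 65 elements, which share the same libraries and are not independent, Spearman's rho between small RNA per kb and the log2 RNA ratio was 0.54 for Piwi-KD and 0.48 for Nxf2-KD.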

How the data were processed

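Per the file headers, the deposited tables give raw read counts per transposable element entry, RPKM for RNA and RPM for CLIP and small RNA. The Nxf2-KD RNA column has no unit in its header and follows from its counts as RPKM. The submitters' processing notes give build dm3. They list TopHat2 2.0.14, DESeq2, Bowtie 1.0.1 and Bowtie2 2.2.9 for the RNA libraries. For CLIP they list SAMtools, STAR, Bowtie and cutadapt, and for small RNA Bowtie and cutadapt, all with no role or order. How reads matching several entries were counted is not given in the sources used here.

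Dividing counts by the deposited RPKM or RPM gave each library total, to within 1 read over entries above 20 reads. Ratios of counts per total were given exact conditional binomial (Clopper-Pearson) 95% intervals, and ratios of ratios exact conditional odds ratio intervals, with Python 3.11.15 and scipy 1.17.1. The code was tested on simulated independent counts with counting error only, a setting that cannot check the spread between replicates. Ratios were computed over each whole table, and elements averaging 1 RPKM or RPM or more were tested. Against 0 reads a floor of 3 counts was used, and no ratio was given where both sides were at or under it. The edgeR tests planned for replicate columns could not be fitted, since each table has 1 column per condition. The named elements were TABOR, 6 comparators, the 5 nearest by each distance and the neighbours in rank. Names in the list of follicle cell elements were matched without case, punctuation or a DM prefix; 2 of 20, Stalker and springer, were not matched. The entry, comparators and lists were chosen with earlier results of these data known. Alternatives were pseudocounts of 0.1 and 10, other totals, median centring and other filters. No sequence of the entry was used here.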

Additional observations from a re-analysis of the deposited data

Results flagged for a closer look

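The recovery of TABOR RNA with Nxf2 over SMInput differed between Piwi-KD and EGFP-KD cells, by the ratio of ratios and its interval: 0.381 (0.250 to 0.570), from 3.58 in Piwi-KD cells and 9.38 in EGFP-KD cells. Over the same cells the SMInput was 8.44-fold and the IP 3.22-fold higher in Piwi-KD, and the median tested element had a ratio of ratios of 0.525. In the crosslinked cells of the UV experiment, whose labels name no knockdown, the recovery was 2.09 (1.38 to 3.16), below both arms. The interval of 0.250 to 0.570 does not cover such a spread between experiments, which was not tested. The part of the SMInput in this value was not tested either.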

How the results depend on the processing

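No paired analysis was possible because each table has 1 column per condition, which carries no replicate number; for the same reason no replicate could be left out. Over 15 comparisons with a value and 90 alternatives, 72 kept the call, and no called ratio among them changed direction. These 72 include Nxf2-KD over Panx-KD RNA, which went from 0.933 to 1.001 when scaled to element reads, with neither called. The RNA rises kept their calls in all 6 alternatives each, at 8.51 to 28.7 for Piwi-KD, 6.86 to 15.2 for Panx-KD and 6.67 to 14.05 for Nxf2-KD over EGFP-KD. Totals without element reads took Piwi-KD over Nxf2-KD RNA to 2.04, past the threshold, while element reads as the total took it to 1.11 and Piwi-KD over Panx-KD to 1.11 (1.28 and 1.24 without COPIA). Median centring ended the calls of the UV IP over SMInput (1.10), the Piwi-KD IP over SMInput (1.88), the Piwi-KD effect on recovery (0.726) and the Piwi IP over SMInput (1.33). A pseudocount of 10 RPM ended those of the UV IP over SMInput (1.71) and the Piwi-KD effect (0.564). Scaling to element reads, chosen after the data were seen, gave 1.82 for the UV IP over SMInput, 2.40 for the UV over the no-UV IP, 1.87 for the Piwi-KD IP over SMInput and 0.509 for the Piwi-KD effect, none called, and turned the Piwi IP over SMInput to 0.772 and the UV over the no-UV SMInput to 0.984, the second at the floor of 3 counts. Element reads without COPIA gave 1.02, 2.15, 1.87 and 0.562 for the first 4 and 1.08 for the Piwi IP, none called, and 2.15 for the UV over the no-UV SMInput, which kept its direction and call. The cause was not tested.

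Without a filter 1 element was called between Nxf2-KD and Panx-KD RNA, against 0 with it, and a mean of at least 10 RPM left 12 of 21 tested elements called for the UV IP over SMInput, against 24 of 63. The TABOR share of small RNA was 2.39% of element reads, against 0.901% of the library. With a pseudocount of 10, 3 of the 5 elements nearest by RNA and 2 of the 5 nearest by recovery remained. Depth limits the uncrosslinked values, which rest on 2 reads and 0 reads. It also limits the Piwi SMInput, with 20 reads of TABOR, 7 of MDG1 and 9 each of STALKER4 and DM412.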
